A study of Mus musculus with 9 samples.

Results

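The comparison described here set the 3 tumors labelled sh3 Tmprss11b against the 3 labelled sh2 Tmprss11b, which are 6 of the 9 tumors sequenced, across every gene of one count table. The tumors of each group were taken by their labels. The study asked what silencing Tmprss11b, which encodes a membrane-anchored serine protease of squamous epithelium, does to tumors of KLN205, a mouse line of lung squamous cell carcinoma (LUSC). The cells were grown under the skin of the right flank of female DBA/2 mice that were 6 to 8 weeks old and had an intact immune system. In all 3 groups the cells carried a SMARTvector, a lentivirus from which doxycycline induces a short hairpin RNA (shRNA), the cells had been given 3 µg/ml doxycycline, and the mice drank 2 g/L doxycycline once the mean tumor volume had reached 100 mm3. The sh2 and sh3 hairpins are both directed at Tmprss11b and differ in their sequence, and shControl carried a scrambled hairpin. Each hairpin was represented by a puromycin-selected pool of transduced cells, so a difference between the hairpins and a difference between the cell pools cannot be told apart. The tumors were collected at day 50 from different mice, and bulk polyadenylated RNA was sequenced, so that cancer cells and the immune, vascular and connective tissue cells of the host were read together.

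Interferon gamma is released by activated T cells and natural killer (NK) cells. It acts through its receptor and the kinases JAK1 and JAK2. Its targets include antigen presentation genes, guanylate-binding proteins and the T cell-attracting chemokines CXCL9, CXCL10 and CXCL11, whereas type I interferons use another receptor and chiefly induce antiviral genes. In bulk tumor RNA, fewer cells of a type and less RNA per cell cannot be told apart.

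Tmprss11b, listed under its older symbol Tmprss11bnl, was barely detected in either shRNA group. Its read counts were 7, 2 and 5 in sh2 replicates 1 to 3, 10, 4 and 5 in sh3 replicates 1 to 3, and 18, 51 and 42 in the control tumors. The sh2 and sh3 counts overlapped, and all 6 were below those of the controls. The difference between the hairpins was 0.53 on the log2 scale with a standard error of 0.63, and a two-sided exact permutation test on log2(CPM + 1) gave P = 0.5, where 3 tumors against 3 cannot go below 0.1. At these counts a difference in knockdown between the hairpins was not detectable, and it turned to -0.26 without sh2 replicate 2 and sh3 replicate 1. Levels are given below in CPM, read counts scaled to library size after edgeR's trimmed mean of M-values (TMM) normalization. They follow the order of replicates 1 to 3. Log2 fold changes are sh3 over sh2 unless stated otherwise, with ± for the standard error. None of the 10 RNA interference genes tested, which include Dicer1, Drosha, Xpo5 and Ago2, was past an unadjusted P of 0.05, and their median log2 fold change was -0.05. Without sh3 replicate 1, 1 of them was past it in each direction.

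Across all genes, no single gene separated the hairpins after correction in edgeR's quasi-likelihood test, and the alternative tests called few. The numbers below are a ranking with its background. The edgeR quasi-likelihood test called 0 of 14725 genes at a false discovery rate (FDR) of 0.05, which is 0% of the genes tested, and the lowest adjusted P was 0.673. At an unadjusted P under 0.05 there were 1057 genes, 7.18% of those tested. Of these, 518 genes (3.52% of those tested) were higher with sh3 and 539 (3.66%) were lower. DESeq2's Wald test called 48 genes, 0.347% of the 13821 genes to which it gave an adjusted P, and the edgeR likelihood ratio test called 14 genes, or 0.0951%. The 3 sh3 tumors lay above the 3 sh2 tumors without overlap in 812 genes (5.51%) and below them in 681 genes (4.62%). Against the 3 shared control tumors, an unadjusted P under 0.05 was reached by 242 genes higher with sh2 (1.64%), 276 lower with sh2 (1.87%), 515 higher with sh3 (3.5%) and 461 lower with sh3 (3.13%). Genes are called higher or lower below by direction, and "past P" means an unadjusted P under 0.05 in the quasi-likelihood test.

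Tumor-to-tumor differences within a hairpin were of about the same size as those between the hairpins. The root mean square difference of log2 levels averaged 0.499 between sh2 tumors, 0.665 between sh3 tumors and 0.598 between sh2 and sh3 tumors. The sh3 average rests on replicate 1, which was 0.826 from replicate 2 and 0.715 from replicate 3, while those were 0.453 apart. The tumors farthest from the other 8 were sh3 replicate 1 (mean difference 0.695) and sh2 replicate 2 (0.659). In sh2 replicate 2, 44 genes were more than 4-fold above and 28 more than 4-fold below every other tumor, and in sh3 replicate 1 the numbers were 16 and 53. Total counts were alike, at 20653219 to 24047784 per tumor, and the ribosomal RNA precursor Rn45s took 1.14% to 1.67% of them except in sh3 replicate 2 with 3.16%. Because of this spread, the counts of list members past P are also given for fits that leave out 1 tumor.

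The number of genes past P moved most with sh3 replicate 1. Without it, 1668 genes were higher (11.2% of those tested) and 1164 lower (7.81%). Without sh2 replicate 2 there were 263 higher (1.76%) and 404 lower (2.7%), and without sh2 replicate 3 there were 206 higher (1.38%) and 463 lower (3.1%). The shares were 3.47% higher and 4.87% lower without sh2 replicate 1, 2.71% and 4.52% without sh3 replicate 2, and 2.92% and 3.68% without sh3 replicate 3. Leaving out a control tumor, which enters through the shared estimate of the spread and the filter on low counts, left 2.24%, 2.3% and 2.42% higher and 3.53%, 3.28% and 3.42% lower for control replicates 1, 2 and 3. Without both sh2 replicate 2 and sh3 replicate 1, an alternative chosen after seeing the data, 9.59% were higher and 6.05% lower. These shares are the background against which the counts of list members without a tumor are to be read. The quasi-likelihood test called 0 genes at an FDR of 0.05 in each of these fits.

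**Figure D1:**
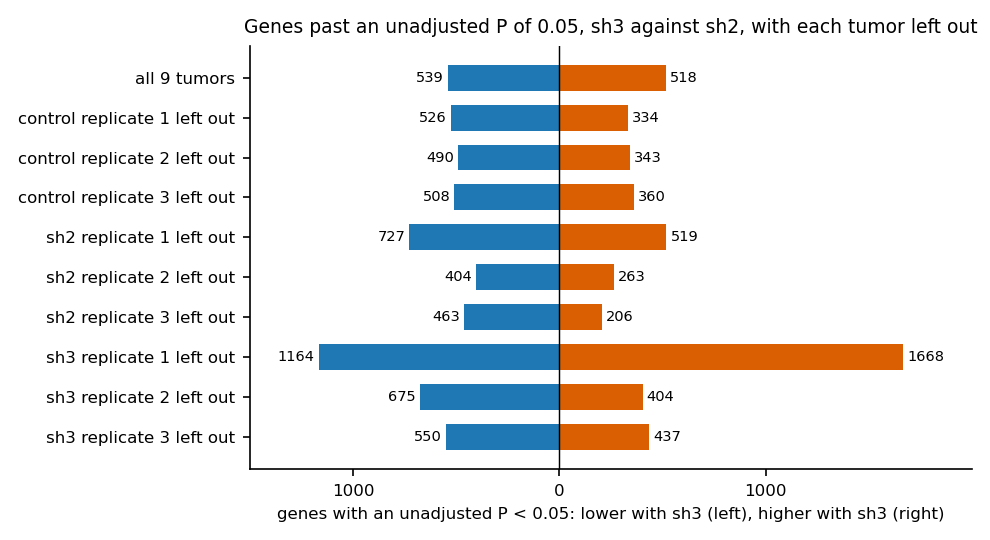
Number of genes with an unadjusted P under 0.05 (edgeR quasi-likelihood test, sh3 against sh2) in the fit of all 9 tumors and with each tumor left out; bars to the left count genes lower with sh3 and bars to the right genes higher with sh3. The counts run from 206 higher without sh2 replicate 3 to 1668 higher without sh3 replicate 1.

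The genes ranked highest by P among those whose groups did not overlap included several with a narrow range within each group. Pigf, which is needed to attach glycosylphosphatidylinositol anchors to surface proteins, was at 9.44, 11.8 and 9.43 CPM with sh2 and 19.3, 20.5 and 20.5 CPM with sh3. The groups did not overlap, and the control tumors, at 15.8, 16 and 14.1 CPM, lay between them (log2 fold change 0.98 ± 0.16, unadjusted P = 0.000171). Cacybp, which encodes the calcyclin-binding protein, was at 128, 107 and 123 CPM with sh2 and 183, 219.7 and 192 CPM with sh3. All sh3 tumors were above all sh2 tumors, and the controls, at 117, 135 and 127 CPM, were in the range of the sh2 tumors or just above it (log2 fold change 0.73 ± 0.13, unadjusted P = 0.000293). Srgap3, a regulator of Rac signaling and actin, was at 65.1, 59.3 and 64.8 CPM with sh2 and 37.1, 32.5 and 37.9 CPM with sh3. Here the sh3 tumors were low and the sh2 tumors stood beside the controls at 56.8, 65.7 and 68.6 CPM (log2 fold change -0.82 ± 0.13, unadjusted P = 0.000102). All of Pigf, Cacybp and Srgap3 kept an unadjusted P under 0.05 in each of the 9 fits that leave out 1 tumor.

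Other genes at the top of the ranking were lower with sh3 in 3 of 3 tumors. Ifnlr1, a receptor chain for type III interferons, was at 22.7, 29 and 33 CPM with sh2 and 16, 14.3 and 13.4 CPM with sh3. The controls, at 19, 17.3 and 17.4 CPM, lay between the groups (log2 fold change -0.96 ± 0.17, unadjusted P = 0.000317). Ltbp3, which holds latent transforming growth factor beta in the matrix, was at 578, 983 and 663 CPM with sh2 and 364, 341 and 362 CPM with sh3, with the widest spread among the sh2 tumors (log2 fold change -1.06 ± 0.21, unadjusted P = 0.000641). Anxa11, a calcium-dependent phospholipid-binding annexin, was at 77.4, 101 and 113 CPM with sh2 and 55.1, 58.4 and 49.9 CPM with sh3. Its sh3 tumors lay below the sh2 tumors with no overlap (log2 fold change -0.84 ± 0.15, unadjusted P = 0.000404). Lamb2, a laminin chain of basement membranes, was at 122, 151 and 153 CPM with sh2 and 93.7, 86.2 and 83.4 CPM with sh3. Aplnr, the apelin receptor of endothelium, was at 21.7, 26.8 and 22.1 CPM with sh2 and 11.6, 12.9 and 13 CPM with sh3. For both genes the sh3 tumors were below the sh2 and the control tumors alike, with log2 fold changes over the controls of -0.03 for sh2 and -0.72 for sh3 for Lamb2 and -0.12 for sh2 and -1.04 for sh3 for Aplnr. The circadian repressor Per2 (-0.97), the endoplasmic reticulum stress factor Atf6 (-0.54) and the imprinted zinc finger gene Peg3 (-1.96) were also lower with sh3 without overlap, by these log2 fold changes.

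Among the genes higher with sh3, Ly6i, a surface protein of the Ly6 family, was at 2.36, 2.22 and 1.46 CPM with sh2 and 7.58, 4.27 and 6.54 CPM with sh3. The controls, at 1.79, 2.4 and 2.42 CPM, were close to the sh2 tumors and the sh3 tumors were above all of them (log2 fold change 1.61 ± 0.34, unadjusted P = 0.00099). Apol10b, of the apolipoprotein L family, was at 3.62, 1.35 and 1.08 CPM with sh2 and 21.6, 5.08 and 16.9 CPM with sh3, so sh3 replicate 2 was nearest to the sh2 range (log2 fold change 2.84 ± 0.63, unadjusted P = 0.00151). H2-Q1, a nonclassical class I gene, was at 8.34, 4.4 and 5.3 CPM with sh2 and 9.43, 39.6 and 37.8 CPM with sh3. In this case sh3 replicate 1 stood just above the sh2 tumors and the other two sh3 tumors well above, and reads of the near-identical H2-Q genes may have been divided among them (log2 fold change 2.27 ± 0.50, unadjusted P = 0.00148). Cenpa, the centromeric histone, was at 48.9, 47.3 and 49 CPM with sh2 and 75.4, 81.3 and 63.9 CPM with sh3. Nfu1, which delivers iron-sulfur clusters in mitochondria, was at 62.1, 61.1 and 61.5 CPM with sh2 and 91.1, 87.8 and 79.1 CPM with sh3. Both had sh2 levels within a few CPM of each other and sh3 levels above them without overlap, at log2 fold changes of 0.60 for Cenpa and 0.48 for Nfu1. The 14 genes that the likelihood ratio test called were Pigf, Cacybp, Socs1, H2-Q1 and Apol10b, higher with sh3, and Srgap3, Abcc9, Ifnlr1, Anxa11, Zfp949, Ltbp3, Plekha6, Aldh1a3 and Clca4, lower with sh3.

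Against this background, 32 gene lists for immune, interferon, epithelial, stromal and host tissue programs were counted, with 627 of their 721 entries tested. The lists were chosen with earlier results of these data known, and some of them share genes such as Ido1 and Ctla4. The lists with the largest share of members past P and higher were class I presentation, interferon gamma response, NK cell and cytotoxic, and T cell. Among lists with at least 5 members tested, those past P and lower were most frequent in the intestinal, red blood cell, pericyte and simple epithelial lists. The median log2 fold change of all 14725 genes was 0.034, so a list median near that value is the middle of the table.

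**Figure D2:**
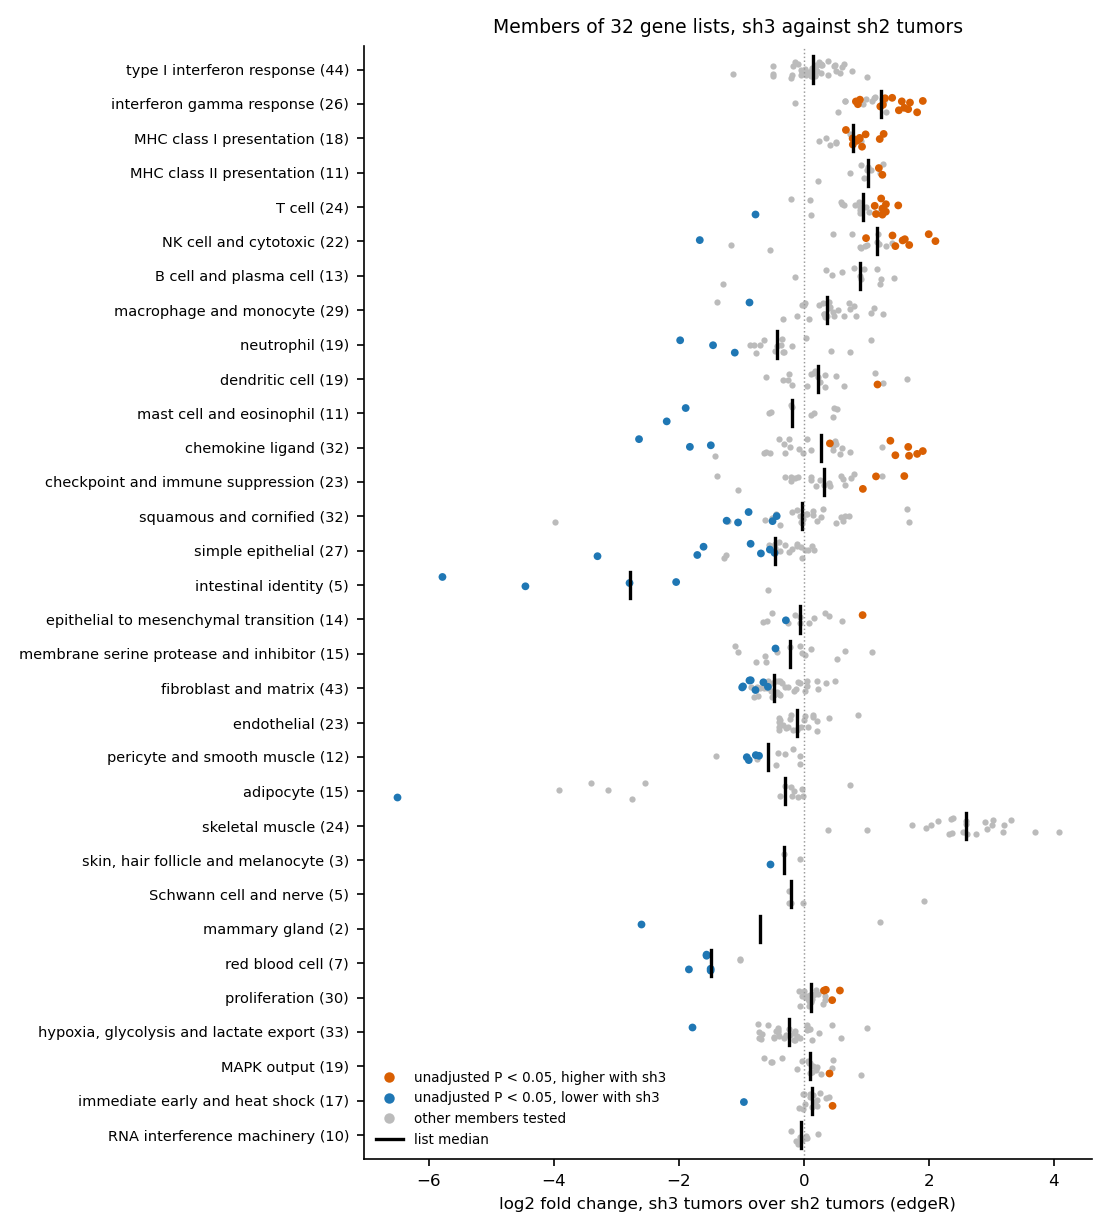
Log2 fold change of sh3 over sh2 tumors (edgeR, x axis) for each member tested of the 32 gene lists (y axis, with the number of members tested); orange points are members past an unadjusted P of 0.05 and higher with sh3, blue points are past it and lower, grey points are the other members, and the black bar is the list median. The interferon gamma median is at 1.24 while the type I interferon median is at 0.15, and the simple epithelial and matrix medians are below 0.

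**Figure D3:**
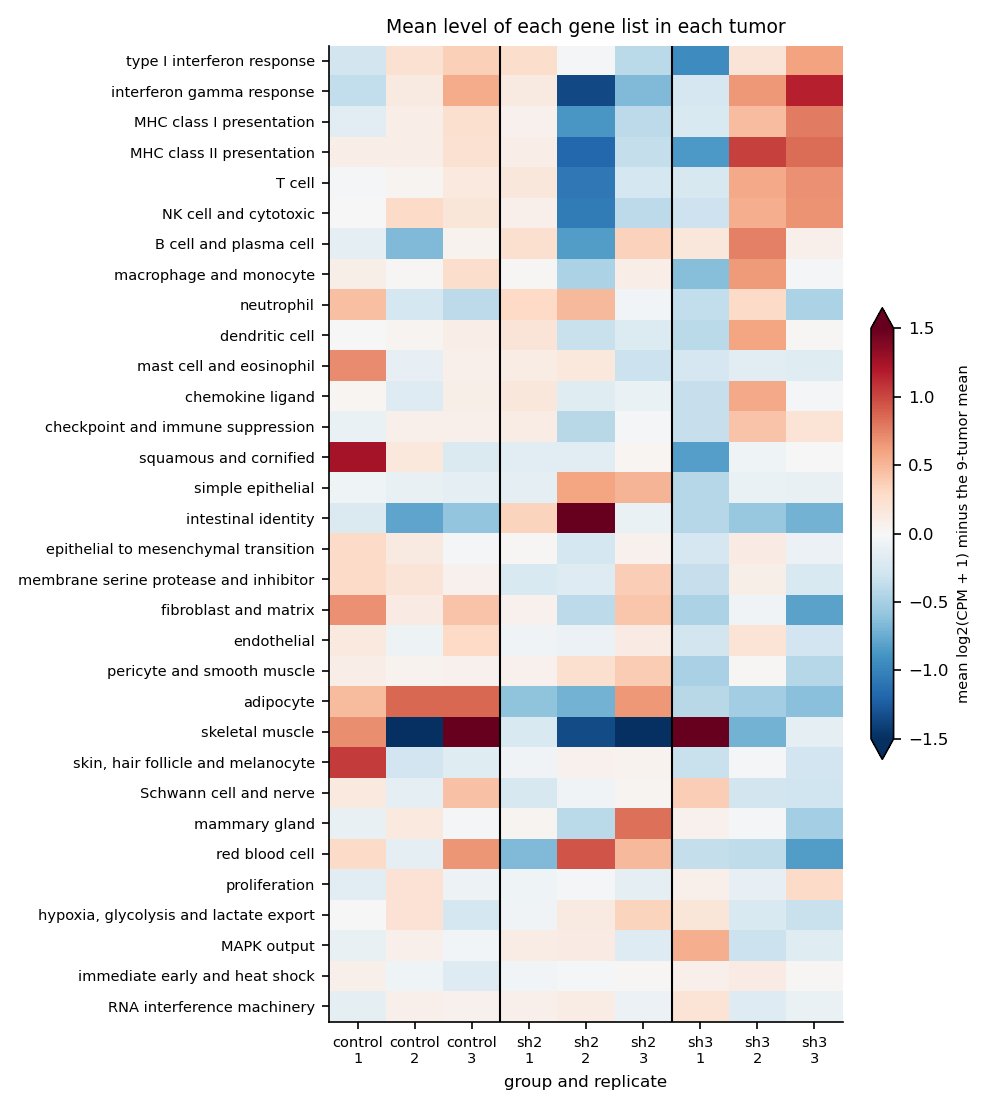
Mean log2(CPM + 1) of the members tested of each gene list (y axis) in each tumor (x axis), minus its mean over the 9 tumors, with black lines between the groups; red is above and blue below that mean. In the interferon gamma, class II, T cell and NK cell lists, sh2 replicate 2 is the lowest sh2 tumor and sh3 replicate 1 the lowest sh3 tumor.

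The interferon gamma response genes were mostly higher in the sh3 than in the sh2 tumors, and both the ligand and its feedback inhibitor separated the groups. Of 26 response genes tested, 14 were past P and higher with sh3 and none was past P and lower, where 3.52% and 3.66% of all genes were. By sign alone 25 of the 26 were higher, the median log2 fold change was 1.24, and the groups did not overlap for 3 genes, all higher (5.51% of all genes). The medians against the controls were -0.72 for sh2 and 0.45 for sh3. The summed level of the list was 4277, 1610.4 and 2469.5 CPM in the sh2 tumors, 3082, 6118 and 9396 CPM in the sh3 tumors and 3028, 4402 and 6273 CPM in the control tumors. The ranges overlapped, since sh2 replicate 1 was above sh3 replicate 1. The number past P and higher was 24, 4 and 1 without sh2 replicate 1, 2 or 3, 23, 6 and 2 without sh3 replicate 1, 2 or 3, and 12, 9 and 12 without control replicate 1, 2 or 3. Without sh2 replicate 2 and sh3 replicate 1 together it was 17. The list median stayed between 0.59 (without sh3 replicate 3) and 1.85 (without sh2 replicate 1) in the fits that leave out 1 tumor.

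Ifng, the ligand, was at 1.31, 0.483 and 0.918 CPM with sh2 and 1.99, 4.42 and 4.49 CPM with sh3. Every sh3 tumor was above every sh2 tumor, and the controls, at 1.66, 2.19 and 3.4 CPM, lay between the groups or among the sh3 tumors (log2 fold change 2.00 ± 0.50, unadjusted P = 0.00319). Socs1, which blocks the JAK kinases, was at 5.86, 3.24 and 5.13 CPM with sh2 and 10.1, 21.7 and 14.4 CPM with sh3. Its groups did not overlap, sh3 replicate 2 was the highest, and the controls at 7.28, 8.53 and 8.02 CPM fell between the groups (log2 fold change 1.70 ± 0.33, unadjusted P = 0.000547). Both Ifng and Socs1 stayed past P in all 9 fits with 1 tumor left out. The receptor and kinase genes, which were chosen after their values were seen, were not past P. The log2 fold change was -0.23 for Ifngr1, -0.07 for Ifngr2, 0.08 for Jak1 and -0.45 for Jak2. Ifngr1 and Ifngr2 turned to 0.04 and 0.10 without sh3 replicate 1.

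To show sequences known from interferon-induced promoters, the letters TTCNNNGAA, an interferon gamma-activated site (GAS), and GAAA, any 2 bases and GAAA, an interferon-stimulated response element (ISRE), were searched on both strands in the 250 bases before the transcription start in the RefSeq promoters of GRCm38.p6. GAS letters were in 7.02% and ISRE letters in 2.98% of all 32851 promoters. In the 13797 promoters of the genes tested they were in 6.18% and 2.61%. Of the 26 interferon gamma response genes, 18 matched the table, and 11 of their 22 promoters held GAS letters and 11 held ISRE letters, with both in 6 and no GAS match overlapping an ISRE match. Of the 38 promoters of the type I list, 5 held GAS and 13 held ISRE letters. For the genes past P, GAS letters were in 7.64% of promoters of genes higher with sh3 and 5.1% of genes lower, and ISRE letters in 5.37% and 2.55%. A match describes these letters in these windows and not the binding of a factor. The promoters of Socs1 (chr16:10785537-10785786, minus strand), Irf1 (chr11:53769764-53770013, plus strand) and Gbp7 (chr3:142530086-142530335, plus strand) are shown 5′ to 3′ as written for the gene's strand because they stand for an inhibitor, a transcription factor and an effector of the pathway, with the matches in capitals.
Socs1: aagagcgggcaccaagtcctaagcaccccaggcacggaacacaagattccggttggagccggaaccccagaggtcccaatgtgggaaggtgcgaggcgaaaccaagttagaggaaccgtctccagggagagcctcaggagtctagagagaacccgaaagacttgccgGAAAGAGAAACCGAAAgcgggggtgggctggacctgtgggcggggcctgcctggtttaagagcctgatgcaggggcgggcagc
Irf1: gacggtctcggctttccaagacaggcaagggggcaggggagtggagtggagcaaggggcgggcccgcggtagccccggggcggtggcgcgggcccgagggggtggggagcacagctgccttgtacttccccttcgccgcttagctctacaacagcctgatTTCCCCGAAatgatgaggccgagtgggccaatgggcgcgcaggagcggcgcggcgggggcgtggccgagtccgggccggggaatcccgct
Gbp7: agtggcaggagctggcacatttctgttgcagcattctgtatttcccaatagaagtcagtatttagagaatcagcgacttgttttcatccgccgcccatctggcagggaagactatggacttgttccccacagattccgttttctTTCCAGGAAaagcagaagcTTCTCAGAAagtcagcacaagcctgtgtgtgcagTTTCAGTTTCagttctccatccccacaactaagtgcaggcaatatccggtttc
The Socs1 window holds ISRE matches that begin 83 and 77 bases before the start and share bases with each other, the Irf1 window a GAS match at 90, and the Gbp7 window GAS matches at 106 and 87 and an ISRE match, read on the other strand, at 53.

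Among the transcription factors, chemokines and effectors downstream of the receptor, sh3 replicate 1 often lay within the sh2 range. Irf1, itself a transcription factor, was at 296, 242 and 254 CPM with sh2 and 256, 368 and 531 CPM with sh3, and sh3 replicate 1 was within the sh2 range (log2 fold change 0.54 ± 0.26, unadjusted P = 0.0671). Gbp7, a guanylate-binding protein, was at 186, 93.7 and 100.4 CPM with sh2 and 156, 221 and 299.7 CPM with sh3, again with sh3 replicate 1 inside the sh2 range (log2 fold change 0.83 ± 0.35, unadjusted P = 0.0433). Cxcl9 was at 306, 47.8 and 141 CPM with sh2 and 253, 824 and 774 CPM with sh3. Here sh2 replicate 1 exceeded sh3 replicate 1, and sh2 replicate 2 was the lowest of all 9 tumors (log2 fold change 1.90 ± 0.65, unadjusted P = 0.0171). Cxcl11 was at 15.3, 2.56 and 7.09 CPM with sh2 and 13.2, 30.0 and 44.7 CPM with sh3, with the same overlap (log2 fold change 1.81 ± 0.64, unadjusted P = 0.0189). Cxcl10 was not past P (log2 fold change 1.25, unadjusted P = 0.0618). Ido1, which breaks down tryptophan, was at 2.78, 0.918 and 1.71 CPM with sh2 and 4.02, 3.35 and 9.15 CPM with sh3, low in every tumor but without overlap between the groups (log2 fold change 1.61 ± 0.60, unadjusted P = 0.0249). Serpina3f, a serine protease inhibitor, was the other gene of this list beside Socs1 and Ido1 whose groups did not overlap, at 19.5, 4.25 and 8.3 CPM with sh2 and 21, 37.5 and 43.7 CPM with sh3 (log2 fold change 1.67 ± 0.55, unadjusted P = 0.0135). The immunity-related GTPases Iigp1 (1.52), Tgtp1 (1.30), Tgtp2 (1.57) and Irgm1 (0.86) were past P by these log2 fold changes, and Tgtp1 and Tgtp2 are near-identical copies whose reads may be shared. Nos2, the inducible nitric oxide synthase, was the gene of the list with the opposite sign, at 6.82, 3.29 and 10.8 CPM with sh2 and 6.75, 6.81 and 5.48 CPM with sh3 and a log2 fold change of -0.14. It turned to 0.30 without sh2 replicate 3.

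No type I interferon gene was past P. None of the 44 tested passed in either direction, 32 were higher and 12 lower by sign, and the median log2 fold change was 0.15. Isg15, an antiviral ubiquitin-like protein, was at 58.8, 69.1 and 35.1 CPM with sh2 and 17, 87.8 and 91.2 CPM with sh3. The sh3 tumors held both the lowest and the highest values, so the sh2 tumors lay within the sh3 range (log2 fold change 0.27 ± 0.53, unadjusted P = 0.63). Bst2, which tethers virus particles, at log2 0.64, and Oas2, which makes the activator of RNase L, at log2 -1.13, had the smallest P of the list and opposite signs. Summed over the list, the level was 4380.1, 3619 and 2760.2 CPM in the sh2 tumors, 2165, 4319 and 6349.9 CPM in the sh3 tumors and 3081, 4269 and 4818 CPM in the control tumors, with sh3 replicate 1 the lowest and sh3 replicate 3 the highest of all. Without sh3 replicate 1, 12 members were past P and higher with sh3 and the median was 0.48. With any other tumor left out the number higher was at most 3 (without sh2 replicate 1), 3 were past P and lower without sh3 replicate 3, and 1 was lower without sh2 replicate 3.

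**Figure D4:**
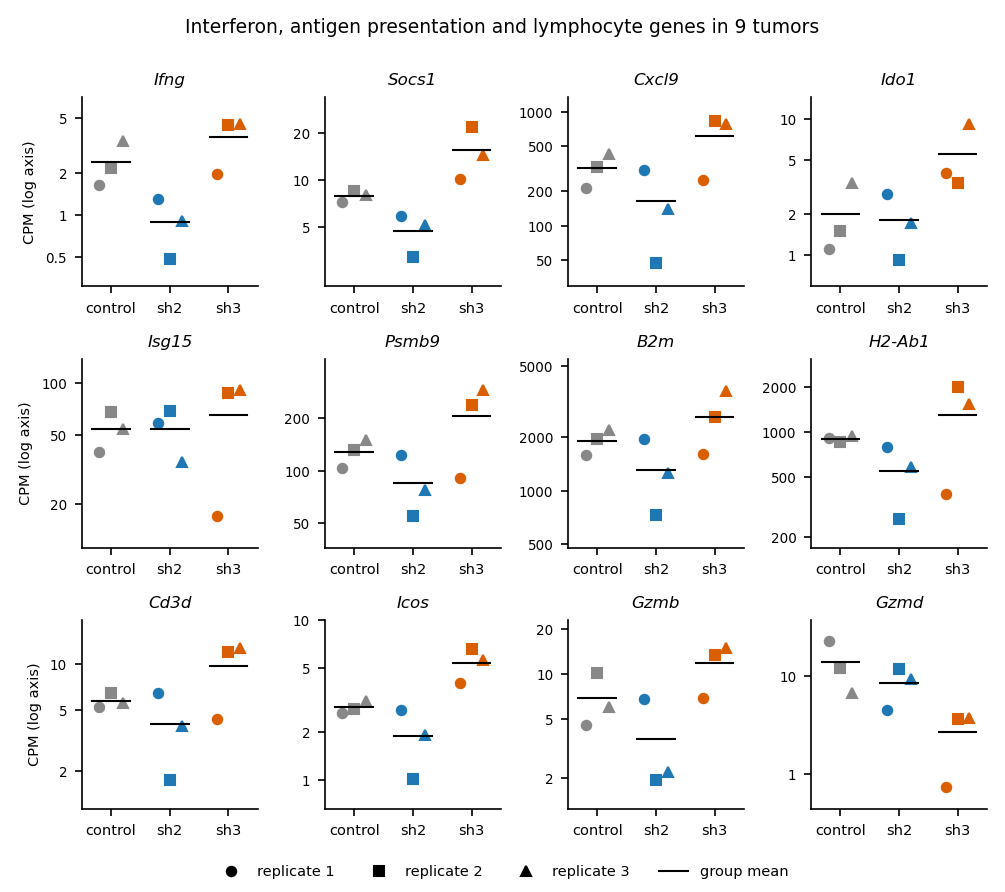
CPM (log axis, with its own range in each panel) of 12 interferon, antigen presentation and lymphocyte genes in the control, sh2 and sh3 tumors; each symbol is 1 tumor, its shape gives the replicate number, and the bar is the group mean. Ifng, Socs1, Ido1, Icos and Gzmb do not overlap between sh2 and sh3, while sh3 replicate 1 falls within or below the sh2 range for Cxcl9, Isg15, Psmb9, B2m, H2-Ab1 and Cd3d.

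Genes of class I antigen presentation, from the immunoproteasome to the molecules of the cell surface, were higher with sh3. Of 18 genes tested, all 18 had a positive log2 fold change, 10 were past P and higher, none was past P and lower, and the median was 0.79. The medians against the controls were -0.41 for sh2 and 0.35 for sh3. Psmb9, an immunoproteasome subunit, was at 123, 55 and 77.7 CPM with sh2 and 90.6, 239.6 and 289.6 CPM with sh3. All sh3 tumors but replicate 1, which was below sh2 replicate 1, were above every sh2 tumor (log2 fold change 1.28 ± 0.42, unadjusted P = 0.0143). B2m, the light chain of every class I molecule, was at 1947, 728 and 1252 CPM with sh2 and 1608, 2567 and 3613 CPM with sh3. In this gene too sh2 replicate 1 exceeded sh3 replicate 1, and sh2 replicate 2 was lowest (log2 fold change 0.99 ± 0.38, unadjusted P = 0.0297). Tap1, which carries peptides into the endoplasmic reticulum, had the same overlap, at 179, 74.6 and 110.0 CPM with sh2 and 123, 193 and 317 CPM with sh3, and was not past P (log2 fold change 0.80 ± 0.39, unadjusted P = 0.0701). Nlrc5, the transactivator of class I genes, was at 154, 38.7 and 67.2 CPM with sh2 and 256, 108 and 239 CPM with sh3, and it was the one member of the list with its highest level in sh3 replicate 1 (log2 fold change 1.21 ± 0.53, unadjusted P = 0.0462). No gene of the list separated the groups completely. Past P and higher were 13, 0 and 2 without sh2 replicate 1, 2 or 3, 15, 4 and 0 without sh3 replicate 1, 2 or 3, and 8 without any 1 of the control tumors, and 14 without both sh2 replicate 2 and sh3 replicate 1.

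Class II antigen presentation, the peptide display of macrophages, dendritic cells and B cells that is also induced by interferon gamma, was also higher with sh3 by sign, with few members past P. All 11 genes tested had a positive log2 fold change with a median of 1.03, and 2 of them were past P. H2-Ab1, a class II beta chain, was at 791, 263 and 587 CPM with sh2 and 389, 1997 and 1535 CPM with sh3. The lowest sh3 tumor, replicate 1, was below sh2 replicates 1 and 3, and the other two were above all sh2 tumors (log2 fold change 1.26 ± 0.55, unadjusted P = 0.0488). H2-DMb1, a chain of the peptide-exchange molecule, was the other member past P, at 113, 44 and 72.1 CPM with sh2 and 54.5, 229 and 243 CPM with sh3 (log2 fold change 1.20 ± 0.51, unadjusted P = 0.0427). Cd74, the invariant chain, was at 3073, 1061 and 2327 CPM with sh2 and 1292, 5541 and 5728 CPM with sh3, with sh3 replicate 1 again below sh2 replicates 1 and 3 (log2 fold change 0.96 ± 0.54, unadjusted P = 0.108). With 1 tumor left out, the number past P and higher was 7, 0 and 0 without sh2 replicate 1, 2 or 3, 10, 0 and 0 without sh3 replicate 1, 2 or 3, and 0 without any 1 of the control tumors. Without sh3 replicate 1 and sh2 replicate 2 it was 10.

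T cell genes were mostly higher with sh3, and the costimulatory receptor gene Icos had the smallest P among them. Of 24 tested, 8 were past P and higher and 1 lower, and the median log2 fold change was 0.95. Icos, which activated T cells express, was at 2.74, 1.01 and 1.92 CPM with sh2 and 4.02, 6.55 and 5.65 CPM with sh3. Every sh3 tumor was above every sh2 tumor, and the controls had 2.64, 2.77 and 3.11 CPM (log2 fold change 1.51 ± 0.39, unadjusted P = 0.00359). Cd6, a coreceptor of the T cell surface, was at 4.09, 1.69 and 3.71 CPM with sh2 and 4.58, 8.28 and 10.8 CPM with sh3. Ctla4, the inhibitory receptor, was at 3.08, 1.45 and 1.38 CPM with sh2 and 3.33, 5.44 and 4.41 CPM with sh3. Both were higher in each sh3 tumor than in each sh2 tumor, by log2 fold changes of 1.31 for Cd6 and 1.15 for Ctla4. The invariant chain gene Cd3d was at 6.45, 1.74 and 3.92 CPM with sh2 and 4.35, 12 and 12.7 CPM with sh3. Its sh3 replicate 1 was below sh2 replicate 1 (log2 fold change 1.26 ± 0.51, unadjusted P = 0.0362). The lineage genes Cd3e (0.82), Cd8a (1.05), Cd4 (0.60) and Foxp3 (0.61) had positive log2 fold changes that were not past P. Ikzf2, a transcription factor of regulatory T cells that other cells also make, was the member past P and lower, at 22.9, 27.2 and 32.2 CPM with sh2 and 8.05, 21.9 and 18.2 CPM with sh3 (log2 fold change -0.77 ± 0.33, unadjusted P = 0.0447). The summed T cell level was 348, 187 and 296 CPM in the sh2 tumors, 232, 449.8 and 437 CPM in the sh3 tumors and 364, 344 and 326 CPM in the control tumors, with sh2 replicate 2 lowest and sh3 replicate 1 next. The count of members past P and higher became 16, 3 and 3 without sh2 replicate 1, 2 or 3, 12, 3 and 2 without sh3 replicate 1, 2 or 3, and 5, 6 and 6 without control replicate 1, 2 or 3, and it was 13 without both sh2 replicate 2 and sh3 replicate 1. None was past P and lower without control replicate 2, sh2 replicate 2, sh2 replicate 3 or sh3 replicate 1.

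Cytotoxic genes split within the granzyme family. Of 22 NK cell and cytotoxic genes tested, 8 were past P and higher, 1 was past P and lower, and the median log2 fold change was 1.18. Gzmb, the granzyme of cytotoxic lymphocytes, was at 6.78, 1.93 and 2.21 CPM with sh2 and 6.89, 13.5 and 14.9 CPM with sh3. The highest sh2 tumor was just below the lowest sh3 tumor (log2 fold change 1.69 ± 0.55, unadjusted P = 0.0132). Gzma, a second granzyme of T and NK cells, was at 7.2, 0.966 and 3.17 CPM with sh2 and 6.57, 17.6 and 10.7 CPM with sh3, with sh2 replicate 1 above sh3 replicate 1 (log2 fold change 1.62 ± 0.65, unadjusted P = 0.0345). Gzmd went the other way, at 4.51, 11.9 and 9.43 CPM with sh2 and 0.74, 3.66 and 3.72 CPM with sh3. All 3 sh3 tumors were below all 3 sh2 tumors, and the controls were at 22.7, 12.2 and 6.67 CPM (log2 fold change -1.67 ± 0.65, unadjusted P = 0.031). Gzme had the same direction without overlap, at 9.23, 10.9 and 10.7 CPM with sh2 and 1.39, 4.42 and 7.87 CPM with sh3, but was not past P (log2 fold change -1.17 ± 0.54, unadjusted P = 0.0605). Gzmf, of the same gene cluster, was low in every tumor but higher with sh3, at 0.379, 0.193 and 0.876 CPM with sh2 and 1.85, 3.3 and 1.2 CPM with sh3 (log2 fold change 2.11 ± 0.72, unadjusted P = 0.017). Its read counts were 9, 4 and 21 with sh2 and 40, 65 and 28 with sh3. With the multi-mapping settings not given, reads may have been shared among the genes of this cluster. Ncr1, an activating receptor that marks NK cells, was at 3.29, 0.676 and 1.63 CPM with sh2 and 4.12, 6.91 and 5.77 CPM with sh3, higher in each sh3 tumor than in each sh2 tumor (log2 fold change 1.58 ± 0.58, unadjusted P = 0.024). Prf1, the pore-forming perforin, was at 4.93, 0.676 and 2.34 CPM with sh2 and 4.72, 4.57 and 8.6 CPM with sh3, where sh2 replicate 1 overlapped the sh3 tumors (log2 fold change 1.17 ± 0.63, unadjusted P = 0.0973). Left-out tumors changed the number past P and higher to 14, 2 and 2 without sh2 replicate 1, 2 or 3, 13, 3 and 3 without sh3 replicate 1, 2 or 3, and 5, 4 and 7 without control replicate 1, 2 or 3. It was 13 without both sh2 replicate 2 and sh3 replicate 1. The number lower was 1, 0 and 0 without sh2 replicate 1, 2 or 3, 0, 1 and 2 without sh3 replicate 1, 2 or 3, and 1 without any 1 of the control tumors.

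Chemokine genes differed in both directions. Among those past P, ligands of lymphocytes, monocytes or dendritic cells were higher and neutrophil-attracting ligands were lower. Of 32 ligand genes tested, 7 were past P and higher with sh3 and 3 were past P and lower, with a median log2 fold change of 0.27. Besides Cxcl9 and Cxcl11, the higher ones were Cxcl13, Ccl5, Ccl8, Xcl1 and Cxcl16, ligands that act mainly on lymphocytes, monocytes or dendritic cells. Ccl5 was at 19.5, 7.2 and 11.9 CPM with sh2 and 9.02, 56.6 and 35.4 CPM with sh3, where sh3 replicate 1 was within the sh2 range (log2 fold change 1.38 ± 0.58, unadjusted P = 0.0399). Ccl8 was at 119, 25.4 and 115 CPM with sh2 and 135, 466 and 225 CPM with sh3, with no overlap (log2 fold change 1.67 ± 0.60, unadjusted P = 0.0215). The lower ones were the neutrophil-attracting ligands Cxcl5, Ppbp and Cxcl3. Cxcl5 was at 27.1, 183 and 51.1 CPM with sh2 and 3.1, 16.8 and 22 CPM with sh3. All sh3 tumors were below all sh2 tumors, sh2 replicate 2 was the highest, and the controls at 66.8, 18.5 and 25.6 CPM spanned both groups (log2 fold change -2.64 ± 0.89, unadjusted P = 0.0155). Ppbp was at 4.17, 8.55 and 2.63 CPM with sh2 and 0.694, 2.44 and 1.2 CPM with sh3, also without overlap (log2 fold change -1.82 ± 0.58, unadjusted P = 0.0118). Cxcl1 and Cxcl2, further ligands of the same receptor, were not past P. Members past P and higher numbered 7, 4 and 1 without sh2 replicate 1, 2 or 3, 11, 1 and 2 without sh3 replicate 1, 2 or 3, and 4, 5 and 4 without control replicate 1, 2 or 3. The number lower was 2, 1 and 4 without sh2 replicate 1, 2 or 3, 2, 5 and 3 without sh3 replicate 1, 2 or 3, and 3 without any 1 of the control tumors.

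The receptor for these ligands was lower too, in a neutrophil list with 3 members past P. Cxcr2 was at 15.2, 23.6 and 7.68 CPM with sh2 and 4.44, 8.89 and 3.64 CPM with sh3. Only sh2 replicate 3 and sh3 replicate 2 overlapped (log2 fold change -1.45 ± 0.49, unadjusted P = 0.0151). G0s2, an inhibitor of lipolysis that neutrophils express, was at 5.6, 17.2 and 6.3 CPM with sh2 and 2.4, 3.05 and 1.92 CPM with sh3, without overlap (log2 fold change -1.98 ± 0.57, unadjusted P = 0.00687). S100a9, an abundant protein of neutrophil granules and cytosol, was at 31.9, 68.9 and 30.0 CPM with sh2 and 19.8, 48.8 and 8.43 CPM with sh3, with sh3 replicate 2 among the sh2 tumors (log2 fold change -0.77 ± 0.71, unadjusted P = 0.309). Of 19 neutrophil genes tested, none was past P and higher and 3 (Cxcr2, G0s2 and Mmp9) were lower, with a median of -0.43. The number past P and lower was 2, 1 and 3 without sh2 replicate 1, 2 or 3, 3, 4 and 2 without sh3 replicate 1, 2 or 3, and 3 without any 1 of the control tumors. Without sh2 replicate 1 there were also 2, and without sh3 replicate 1 there were 3, past P and higher. The eosinophil gene Siglec5 (Siglecf) was at 2.15, 5.46 and 1.25 CPM with sh2 and 0.416, 0.864 and 0.642 CPM with sh3 (log2 fold change -2.20 ± 0.60, unadjusted P = 0.00532). Ear2, an eosinophil ribonuclease, was at 2.32, 2.75 and 2.04 CPM with sh2 and 0.185, 1.58 and 0.171 CPM with sh3 (log2 fold change -1.89 ± 0.76, unadjusted P = 0.0348). Both separated the groups, and they were the members past P among 11 mast cell and eosinophil genes. By sign 5 of the 11 were higher and 6 lower, with a median log2 fold change of -0.19. The groups did not overlap for 1 higher and 3 lower members (5.51% and 4.62% of all genes). The mast cell gene Cpa3 was at 1.69, 1.79 and 1.13 CPM with sh2 and 2.22, 1.83 and 2.4 CPM with sh3. Its log2 fold change was 0.49, that of Cma1 0.46 and that of Ccr3 -0.53, and none of these was past P. In that list the number lower was 1, 1 and 2 without sh2 replicate 1, 2 or 3, 1, 2 and 1 without sh3 replicate 1, 2 or 3, and 2 without any 1 of the control tumors.

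Macrophage genes passed in larger number with sh3 replicate 1 left out. Of 29 tested, none was past P and higher and 1 was lower (3.45%, where 3.66% of all genes were). This was Spp1 (osteopontin), at 664, 474 and 396 CPM with sh2 and 165, 326 and 342 CPM with sh3. Its sh3 tumors were all below the sh2 tumors, and cancer cells can also make it (log2 fold change -0.88 ± 0.34, unadjusted P = 0.0288). C1qa, a complement component made by macrophages, was at 738, 459 and 702 CPM with sh2 and 296, 1781 and 1077 CPM with sh3. The lowest and the highest tumors were both sh3 tumors (log2 fold change 0.73 ± 0.51, unadjusted P = 0.183). Arg1, arginase 1 of suppressive myeloid cells, was at 69.6, 171 and 179.6 CPM with sh2 and 42.4, 106 and 11.1 CPM with sh3, with overlap between the hairpins (log2 fold change -1.40 ± 0.69, unadjusted P = 0.0727). The median log2 fold change of the list was 0.37, and 15 members were past P and higher without sh3 replicate 1, 1 without sh2 replicate 3 and none in the other fits that leave out 1 tumor, and the number lower was 1, 1 and 1 without sh2 replicate 1, 2 or 3, 0, 3 and 1 without sh3 replicate 1, 2 or 3, and 1 without any 1 of the control tumors. Dendritic cell genes gave 1 of 19 past P and higher (5.26%, where 3.52% of all genes were), the plasmacytoid marker Siglech. The number was 3, 0 and 0 without sh2 replicate 1, 2 or 3, 8, 0 and 0 without sh3 replicate 1, 2 or 3, and 0 without any 1 of the control tumors. None of 13 B cell and plasma cell genes was past P, although their median was 0.90. Without sh2 replicate 1, 2 of these were past P and higher, without sh3 replicate 1, 1 was higher, and 1 was lower without sh2 replicate 2 or sh3 replicate 3. Of 23 checkpoint and suppression genes, 3 were past P and higher (Ctla4, Ido1 and the inhibitory receptor Havcr2), and the number was 6, 0 and 0 without sh2 replicate 1, 2 or 3, 10, 1 and 2 without sh3 replicate 1, 2 or 3, and 3, 3 and 4 without control replicate 1, 2 or 3. None was lower, but 1 was without sh2 replicate 1, 1 without sh3 replicate 1 and 2 without sh3 replicate 2.

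Simple epithelial genes were mostly lower with sh3, and their median in the sh3 tumors was close to that of the controls. Of 27 tested, none was past P and higher and 7 were past P and lower, with a median log2 fold change of -0.45. The medians against the controls were 0.39 for sh2 and -0.04 for sh3, with 6 genes past P and higher with sh2 (1.64% of all genes) and none with sh3. Muc1, a membrane mucin, was at 217, 643 and 467 CPM with sh2 and 81.1, 179.9 and 146 CPM with sh3. The groups did not overlap, and the controls at 139.6, 114 and 179 CPM were in the sh3 range (log2 fold change -1.71 ± 0.41, unadjusted P = 0.0025). Elf3, an epithelial transcription factor, was at 98.3, 407 and 304 CPM with sh2 and 50.1, 117 and 99.3 CPM with sh3, with sh2 replicate 1 among the sh3 tumors (log2 fold change -1.61 ± 0.47, unadjusted P = 0.00794). The keratin Krt19 was at 838, 2126 and 1803 CPM with sh2 and 645, 961 and 1034 CPM with sh3. In this gene sh2 replicates 2 and 3 were high and sh2 replicate 1 was within the sh3 range (log2 fold change -0.85 ± 0.33, unadjusted P = 0.0281). Ocln, of tight junctions, was at 37.5, 60.3 and 56 CPM with sh2 and 30.4, 28.4 and 36.6 CPM with sh3, without overlap (log2 fold change -0.69 ± 0.20, unadjusted P = 0.00696). The general epithelial genes Cdh1 (-0.46), Krt8 (-0.53) and Epcam (-0.23) were lower by these log2 fold changes but not past P. Past P and lower were 12, 3 and 4 without sh2 replicate 1, 2 or 3, 6, 7 and 6 without sh3 replicate 1, 2 or 3, and 7, 7 and 6 without control replicate 1, 2 or 3.

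Several genes were very high in sh2 replicate 2 and were also higher in the other sh2 tumors than in the sh3 tumors. Aldh1a3, which makes retinoic acid, was at 36.5, 1232 and 68 CPM with sh2 and 11.5, 16.3 and 11.2 CPM with sh3. No sh3 tumor reached the lowest sh2 tumor, and the controls had 17.6, 29.3 and 11.7 CPM (log2 fold change -5.10 ± 1.26, unadjusted P = 0.0029). Clca4, a secreted protein of mucosal epithelium, was at 13.4, 423 and 16.4 CPM with sh2 and 3.84, 5.28 and 2.18 CPM with sh3, again without overlap (log2 fold change -5.33 ± 1.39, unadjusted P = 0.00403). Plekha6 was at 51.2, 225 and 83.6 CPM with sh2 and 18.1, 39.6 and 22.6 CPM with sh3 (log2 fold change -2.16 ± 0.53, unadjusted P = 0.00262). Without sh2 replicate 2 the log2 fold change was -2.03 for Aldh1a3, -2.01 for Clca4 and -1.35 for Plekha6. Cdx2, the transcription factor of intestinal identity, was at 9.82, 94.4 and 9.01 CPM with sh2 and 6.06, 4.62 and 5.65 CPM with sh3, so that apart from sh2 replicate 2 the sh2 tumors were still above the sh3 tumors (log2 fold change -2.79 ± 0.83, unadjusted P = 0.00833). Of 5 intestinal genes tested, 4 were past P and lower with sh3. The number was 4, 1 and 5 without sh2 replicate 1, 2 or 3, 5, 4 and 4 without sh3 replicate 1, 2 or 3, and 5 without any 1 of the control tumors, and the median moved from -2.79 to -0.93 without sh2 replicate 2.

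Among squamous and cornified genes, the members past P were desmosomal, envelope and transcription factor genes. Of 32 tested, none was past P and higher and 5 were lower, with a median of -0.04, which was -0.22 without sh3 replicate 2 and -0.44 without sh3 replicate 3. Ppl, the cornified envelope protein periplakin, was at 148, 269 and 172 CPM with sh2 and 78.3, 115 and 125 CPM with sh3, without overlap (log2 fold change -0.89 ± 0.25, unadjusted P = 0.00603). Dsc2, a desmosomal cadherin, was at 50.9, 154 and 61.6 CPM with sh2 and 31.3, 30.4 and 51.5 CPM with sh3, where only sh2 replicate 1 was below the highest sh3 tumor (log2 fold change -1.24 ± 0.40, unadjusted P = 0.013). The others past P were the transcription factors Klf5 (-0.44) and Ovol1 (-1.05) and the envelope gene Evpl (-0.50). The defining squamous genes Krt14, Krt6a, Trp63, Dsg3 and Krt5 were not past P. Krt5, at 0.843, 5.02 and 1.88 CPM with sh2 and 0.0925, 0.305 and 0.0856 CPM with sh3, was lower in each sh3 tumor than in each sh2 tumor. Its sh3 read counts were 2, 6 and 2, near the floor of 3 counts, and the controls were at 87.4, 0.455 and 0.573 CPM. Krt14, a basal keratin, was at 93.5, 59.9 and 108 CPM with sh2 and 12.3, 120.4 and 184 CPM with sh3, and Trp63, the transcription factor of basal squamous cells, at 3.08, 0.773 and 1.79 CPM with sh2 and 0.37, 1.47 and 4.66 CPM with sh3. With 1 tumor left out, the number past P and lower was 6, 4 and 4 without sh2 replicate 1, 2 or 3, 4, 6 and 8 without sh3 replicate 1, 2 or 3, and 6 without any 1 of the control tumors, and 2 were past P and higher without sh2 replicate 3 and without sh3 replicate 1. Of 14 genes of epithelial to mesenchymal transition, 1 was past P in each direction (7.14%, where 3.52% of all genes were higher and 3.66% lower). Twist1, a mesenchymal transcription factor, was past P and higher, at 21.8, 8.6 and 17.2 CPM with sh2 and 34.5, 28.7 and 28.3 CPM with sh3, without overlap (log2 fold change 0.94 ± 0.31, unadjusted P = 0.0139). The integrin chain Itga5 was past P and lower, at 61.2, 59.2 and 65.7 CPM with sh2 and 52.9, 50.7 and 48.8 CPM with sh3 (log2 fold change -0.29 ± 0.12, unadjusted P = 0.0361). The number higher in that list was 1, 1 and 1 without sh2 replicate 1, 2 or 3, 3, 1 and 1 without sh3 replicate 1, 2 or 3, and 1 without any 1 of the control tumors. The number lower was 1, 2 and 0 without sh2 replicate 1, 2 or 3, 3, 1 and 0 without sh3 replicate 1, 2 or 3, and 1 without any 1 of the control tumors.

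**Figure D5:**
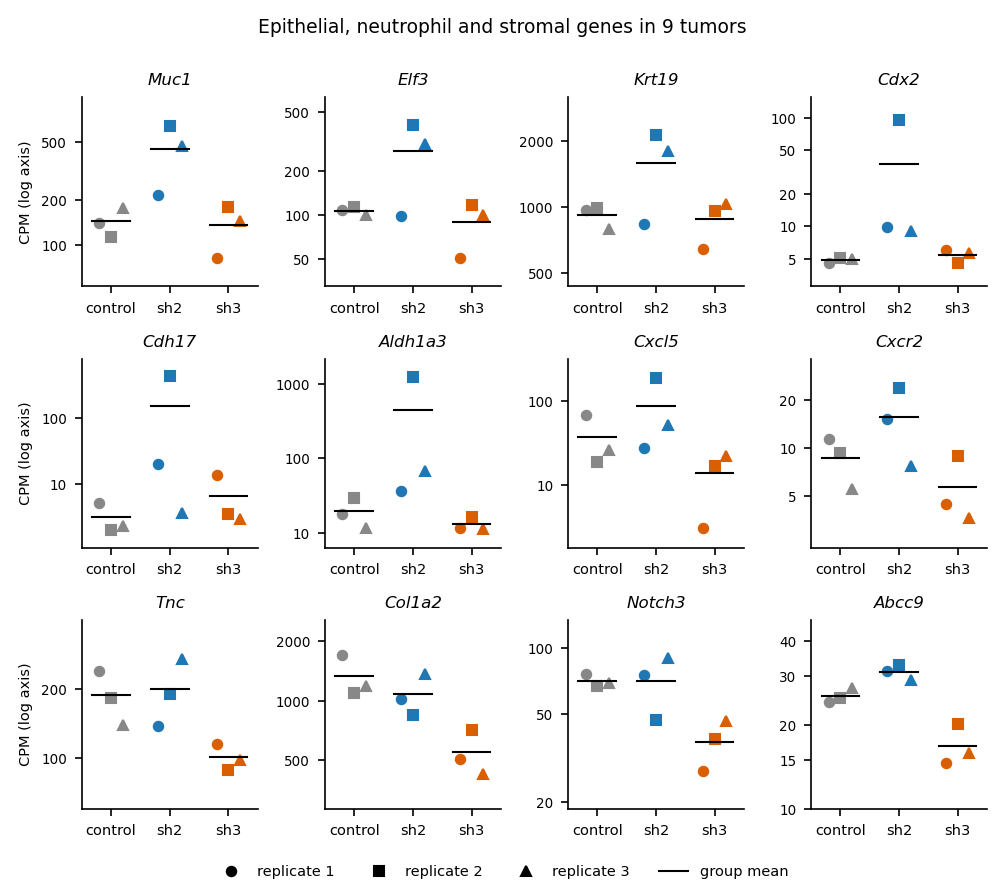
CPM (log axis, with its own range in each panel) of 12 epithelial, neutrophil and stromal genes in the control, sh2 and sh3 tumors; each symbol is 1 tumor, its shape gives the replicate number, and the bar is the group mean. For Cdx2, Cdh17 and Aldh1a3, sh2 replicate 2 is far above every other tumor, while Muc1, Cxcl5, Tnc, Col1a2, Notch3 and Abcc9 separate the sh2 and sh3 tumors completely.

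Matrix genes of fibroblasts were mostly lower with sh3, collagens and collagen cross-linking enzymes among them. Of 43 tested, none was past P and higher, 7 were past P and lower, 7 did not overlap between the groups, all lower (4.62% of all genes), and the median log2 fold change was -0.48. The medians against the controls were -0.35 for sh2 and -0.76 for sh3, and 20 genes were past P and lower with sh3 against the controls (3.13% of all genes). Tnc, the matrix glycoprotein tenascin C, was at 138, 190.1 and 272 CPM with sh2 and 115, 89.3 and 98.1 CPM with sh3. All sh3 tumors were below all sh2 tumors (log2 fold change -0.99 ± 0.27, unadjusted P = 0.00529). Col1a2, a chain of type I collagen, was at 1017, 846 and 1366 CPM with sh2 and 508, 708 and 427 CPM with sh3, also without overlap (log2 fold change -0.97 ± 0.27, unadjusted P = 0.00538). Col1a1, its partner chain, was at 913, 821 and 1257 CPM with sh2 and 449.7, 673 and 512 CPM with sh3, with the same separation (log2 fold change -0.87 ± 0.29, unadjusted P = 0.0147). Col6a1 (-0.78), Col6a2 (-0.85) and the collagen cross-linking enzymes Loxl2 (-0.65) and Lox (-0.58) were the others past P, with these log2 fold changes. Pdgfra, a surface marker of fibroblasts, was at 50.8, 20.6 and 46.7 CPM with sh2 and 33.5, 52.2 and 36.6 CPM with sh3, with overlap, and neither it nor Dcn, the matrix proteoglycan decorin, was past P. The count of members past P and lower became 8, 18 and 3 without sh2 replicate 1, 2 or 3, 9, 16 and 4 without sh3 replicate 1, 2 or 3, and 8, 7 and 9 without control replicate 1, 2 or 3.

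Pericyte genes were lower as well, and no member of the endothelial list was past P. Of 12 pericyte and smooth muscle genes tested, all 12 had a negative log2 fold change, 4 were past P and lower, and the median was -0.58. Abcc9, a potassium channel subunit of pericytes, was at 31.4, 32.8 and 29 CPM with sh2 and 14.6, 20.2 and 15.8 CPM with sh3. Each group held within a narrow range with no overlap, and the controls at 24.2, 25 and 27.1 CPM lay between (log2 fold change -0.88 ± 0.16, unadjusted P = 0.00029). Notch3, a receptor that maintains vascular mural cells, was at 75.2, 47.3 and 90.0 CPM with sh2 and 27.8, 38.6 and 46.4 CPM with sh3, and its sh2 replicate 2 was just above the highest sh3 tumor (log2 fold change -0.91 ± 0.25, unadjusted P = 0.0055). Kcnj8, the channel partner of Abcc9, was at 12.8, 12.4 and 11.2 CPM with sh2 and 5.92, 10.8 and 5.48 CPM with sh3, without overlap (log2 fold change -0.72 ± 0.30, unadjusted P = 0.0412). Myh11, smooth muscle myosin, was at 6.95, 13.5 and 10.4 CPM with sh2 and 7.31, 4.47 and 6.33 CPM with sh3 (log2 fold change -0.77 ± 0.29, unadjusted P = 0.0272). The defining mural genes Rgs5, at a log2 fold change of -0.44, and Cspg4 were not past P. Left-out tumors changed the number past P and lower to 5, 3 and 3 without sh2 replicate 1, 2 or 3, 3, 6 and 3 without sh3 replicate 1, 2 or 3, and 4 without any 1 of the control tumors. Of the 23 endothelial genes in the list, which does not hold Aplnr, none was past P, the median was -0.11, and the cadherin Cdh5 was at 59, 59.3 and 52.3 CPM with sh2 and 43.4, 62.7 and 44.5 CPM with sh3. Without sh3 replicate 2, 6 endothelial genes were past P and lower, without sh3 replicate 3, 1 was lower, and without sh3 replicate 1, 1 was higher.

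Genes of host tissues that can be taken along with a tumor, such as muscle, fat and blood, differed widely from tumor to tumor. The summed level of 24 skeletal muscle genes was 319, 246 and 82.8 CPM in the sh2 tumors, 1962, 237 and 387 CPM in the sh3 tumors and 660.0, 151 and 5518 CPM in the control tumors. The highest were control replicate 3 and sh3 replicate 1, and none of the 24 was past P although their median log2 fold change was 2.59, which was 0.74 without sh3 replicate 1. Without control replicate 2, 5 were past P and higher, and without control replicate 3, 2 were. Acta1, skeletal muscle actin, ran from 0.501 CPM in sh2 replicate 3 to 1127 CPM in control replicate 3. Adipoq, adiponectin of fat cells, was at 0.0421, 0 and 3.5 CPM with sh2 and 0.37, 0.152 and 0 CPM with sh3 and turned in sign to 2.66 without sh2 replicate 3. Of 15 adipocyte genes, 1 was past P and lower (6.67%, where 3.66% of all genes were). The number was 4, 4 and 0 without sh2 replicate 1, 2 or 3, 2, 0 and 0 without sh3 replicate 1, 2 or 3, and 0, 1 and 1 without control replicate 1, 2 or 3, and 1 was higher without sh2 replicate 3. Hbb-bs, a beta globin of red blood cells, was at 5.1, 27.9 and 18.7 CPM with sh2 and 6.7, 7.52 and 4.15 CPM with sh3, with sh2 replicate 1 within the sh3 range (log2 fold change -1.49 ± 0.54, unadjusted P = 0.0221). Of 7 red blood cell genes tested, 5 were past P and lower, but Hbb-bs and Hbb-b1, Hba-a1 and Hba-a2, and Hbb-bt and Hbb-b2 have identical counts in the table, so the 7 are 4 separate measurements. The number was 7, 0 and 2 without sh2 replicate 1, 2 or 3, 5, 2 and 0 without sh3 replicate 1, 2 or 3, and 3, 5 and 5 without control replicate 1, 2 or 3. Whether blood, muscle or fat in the samples had a part in the immune or stromal differences was not tested.

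Of the programs that cancer cells share with dividing or stressed cells, proliferation had a larger share past P than all genes. The other lists had few members past P. Over all genes, 3.52% were past P and higher and 3.66% were past P and lower. A single member past P made up 3.03% of the hypoxia list, 5.26% of the MAPK list, 5.88% of the heat shock list and 6.67% of the protease list. Of 30 proliferation genes, 4 were past P and higher (Pcna, Birc5, Cdk1 and Tyms), which is 13.3% of the list. By sign 26 were higher and 4 lower, with a median log2 fold change of 0.12. The groups did not overlap for 6 of the 30, all higher (5.51% of all genes). Pcna, the sliding clamp of replication, was at 119, 118 and 111 CPM with sh2 and 128, 193 and 154 CPM with sh3, with all sh3 tumors above all sh2 tumors (log2 fold change 0.45 ± 0.16, unadjusted P = 0.0219). Mki67, the proliferation antigen, was at 213, 198 and 163 CPM with sh2 and 229, 152 and 289 CPM with sh3 and turned to -0.03 without sh3 replicate 3. Members past P and higher numbered 2, 0 and 0 without sh2 replicate 1, 2 or 3, 3, 5 and 1 without sh3 replicate 1, 2 or 3, and 1, 3 and 1 without control replicate 1, 2 or 3. Of 33 genes of hypoxia, glycolysis and lactate export, 1 was past P and lower, Egln3, an oxygen-sensing hydroxylase, at 74.1, 192 and 123 CPM with sh2 and 42.4, 42.9 and 27.3 CPM with sh3. All sh3 tumors were below all sh2 tumors (log2 fold change -1.79 ± 0.44, unadjusted P = 0.00265). The lactate exporter Slc16a3 and its partner Bsg had log2 fold changes of -0.22 and -0.15. Without sh3 replicate 1, 7 genes of this list were past P and lower, 3 without sh2 replicate 2, and 2 without sh2 replicate 1, sh2 replicate 3 or sh3 replicate 2. Of 19 MAPK output genes 1 was past P and higher, Etv5 (0.40). The number higher was 1, 0 and 0 without sh2 replicate 1, 2 or 3, 0, 1 and 1 without sh3 replicate 1, 2 or 3, and 0 without any 1 of the control tumors, so Etv5 was not past P in most of these fits. Without sh3 replicate 1, 5 were lower, and without sh2 replicate 1, 2 were lower. Of 17 immediate early and heat shock genes, the cochaperone gene Dnajb1 was past P and higher (0.46) and the early response gene Fos lower (-0.96). None was past P and higher without sh2 replicate 1, sh2 replicate 2 or sh3 replicate 1, and none was lower without sh2 replicate 2 or sh3 replicate 2. Of 15 membrane serine proteases and their inhibitors, relatives of the target, only the inhibitor Spint1 was past P and lower, at a log2 fold change of -0.47, and the number was 1, 0 and 0 without sh2 replicate 1, 2 or 3, 2, 0 and 0 without sh3 replicate 1, 2 or 3, and 1 without any 1 of the control tumors. Tmprss11e, a close relative of the target, was at 142, 41.8 and 202 CPM with sh2 and 145, 149 and 124 CPM with sh3, with sh2 replicate 2 lowest.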

How the data were processed

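Bulk RNA of 9 tumors, 3 per group, was compared as labelled, and replicates came from different mice, so P values measure the spread between these tumors. The authors aligned reads to mm10 with STAR 2.5.3a and deposited featureCounts read counts per gene, with strand and multi-mapping settings not given in the sources used here. The authors also deposited a signal column per tumor, which equals CPM after TMM scaling within 4.73e-11 and was used only to check the units. Their TPM values and comparison columns (fold changes, P values) were not used. No column belonged to other samples.

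The counts were fitted with edgeR 4.0.16 (R 4.3.3; TMM, filterByExpr by group, robust quasi-likelihood F test, 3 groups, contrast sh3 minus sh2, 6 residual degrees of freedom), with Benjamini-Hochberg adjustment over 14725 of 19481 genes. DESeq2 1.42.0 was an alternative. The scripts were tested on simulated data. Totals of 20653219 to 24047784 counts put the 3-count floor at 0.123 to 0.152 CPM and cover counting error only. Replicate numbers were not treated as pairs in the main fit. Of 721 list entries, 701 were found in the table, 5 by synonym, and 627 tested. Named were the target, the 15 genes per direction with the smallest unadjusted P among those without overlap and with a mean of at least 1 CPM, defining list members and up to 8 members past P per list, and genes called by the other tests. The hairpin comparison, the lists and these rules were chosen with earlier results of these data known. Promoters were RefSeq's for GRCm38.p6.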

Additional observations from a re-analysis of the deposited data

How the results depend on the processing

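At an FDR of 0.05 edgeR's quasi-likelihood test called 0 genes under each scaling, filter, design and left-out tumor (1057 at an unadjusted P under 0.05 with all tumors), while DESeq2's Wald test called 48 and edgeR's likelihood ratio test 14. At an unadjusted P under 0.05 the count of 1057 moved to 610 with only the 6 shRNA tumors, to between 667 (without sh2 replicate 2) and 2832 (without sh3 replicate 1) with 1 tumor left out, and to 2328 without both of those tumors, an alternative chosen after seeing the data. It was 669 without sh2 replicate 3. The cause was not tested. It stayed within 1.5 times under DESeq2's Wald test (1366), the likelihood ratio test (1070), scaling by DESeq2 (1043), testing all genes (1180) or keeping only genes that reach 10 counts in each tumor (982). With the replicate number as a block it was 741, with 0 genes at an FDR of 0.05. Same-numbered sh2 and sh3 tumors did not deviate together (correlations -0.0996, -0.220 and 0.005). These few values cannot settle whether the numbers pair the tumors.

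Over 142 named genes, 2349 of 2402 alternative values kept direction and side of the FDR threshold, 43 passed it (all under the Wald or likelihood ratio test) and 10 changed sign. The sign changes were Tmprss11bnl to -0.26 and Ifngr2 to 0.13 without sh2 replicate 2 and sh3 replicate 1 together, and the following with 1 tumor left out, as the lowest and highest log2 fold change. Ifngr1 ran from -0.52 to 0.041 and Ifngr2 from -0.31 to 0.10 (both positive only without sh3 replicate 1). Nos2 ran from -0.49 to 0.30, Adipoq from -3.96 to 2.66 and Bsg from -0.33 to 0.064 (each positive only without sh2 replicate 3). Isg15 ran from -0.088 to 0.72 (negative without sh3 replicate 2 or 3) and Mki67 from -0.034 to 0.43 (negative only without sh3 replicate 3). Of 575 values of the 32 list medians under the alternatives, 38 moved by more than the spread between tumors.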

Other observations

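Other genes ranked near the top by unadjusted P included Nme1, Upp1, Padi1 and Zfp809. Nme1, a nucleoside diphosphate kinase, was at 169.5, 175 and 139.6 CPM with sh2 and 254, 299 and 205 CPM with sh3. Upp1, which cleaves uridine, was at 35.6, 18.7 and 20.02 CPM with sh2 and 117, 46.2 and 53.3 CPM with sh3. Both were higher in each sh3 tumor than in each sh2 tumor, by log2 fold changes of 0.65 for Nme1 and 1.54 for Upp1 in edgeR's fit, and neither passed an FDR of 0.05. Padi1, an enzyme that turns protein arginine into citrulline in epidermis, was lower with sh3, at 18.9, 23.3 and 28 CPM with sh2 and 8.14, 12.2 and 10.7 CPM with sh3. Zfp809, which silences retroviral sequences, was at 49.9, 57.7 and 45 CPM with sh2 and 24.2, 31 and 33 CPM with sh3, again without overlap.

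Milk protein genes were seen mainly in sh2 replicate 3. Csn2, a casein, was at 9.09 CPM there and at most 0.341 CPM in every other tumor, and Csn3 was at 5.72 CPM there and at most 1.20 CPM elsewhere. Csn3 was the gene past an unadjusted P of 0.05 of 2 mammary genes tested, and neither was past it without sh2 replicate 3, sh3 replicate 1, sh3 replicate 3 or any 1 control tumor, while both were without sh2 replicate 2. None of 5 nerve genes was past an unadjusted P of 0.05 in the fit of all tumors, and 1 was without control replicate 3 and 1 without sh3 replicate 1. Of 3 skin genes tested, the hair follicle gene Tchh was past it and lower with sh3, at 17.6, 23.4 and 18.8 CPM with sh2 and 12.9, 15.8 and 12.3 CPM with sh3. No skin gene was past it without sh2 replicate 2 or sh3 replicate 3.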
